A study of Mus musculus with 16 samples.

Results

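The genes described here are 44 genes of the cell cycle and of DNA replication, among 21959 genes listed in liver metastasis tissue of the mouse colon adenocarcinoma line MC38. They were taken from a list of gene symbols, matched through their Ensembl IDs on the mouse GRCm39 assembly, and all 44 were found and passed the filter on low counts. By role they comprised 6 cyclins and CDK1, 9 mitotic kinases and checkpoint proteins, 3 mitotic kinesins, 5 centromere and kinetochore proteins, 2 chromosome proteins, 10 origin licensing and firing factors, 5 genes of the replication fork and nucleotide supply and 4 transcription factors. All 16 animals were male wild-type C57BL/6 mice, 6 weeks old, given MC38 cells into the inferior hemispleen, so that tumors formed in the liver. The 4 mice of the control group received PBS. The other groups, with 4 mice each, received SB525334, an inhibitor of the TGF-β receptor I kinase (ALK5), daily by oral gavage at 20 mg/kg, or KN046, a bispecific antibody against PD-L1 and CTLA-4, intraperitoneally at 10 mg/kg 2 times a week, or both agents. Bulk mRNA was sequenced once per mouse from tumor tissue of 1 implanted line.

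Progress through the cell cycle is driven by cyclins and their kinases, and the genes encoding them are transcribed in waves. E2F factors switch on replication genes at the G1/S transition, whereas the MuvB complex with B-MYB and FOXM1 acts on mitotic genes through CHR elements in their promoters. CCAAT boxes in those promoters are a separate element. The RB family and the DREAM complex repress both replication and mitotic genes in resting cells. Transcripts of these genes therefore serve widely as a readout of how many cells in a tumor are cycling. In bulk tissue, fewer cycling cells and less RNA per cycling cell cannot be told apart.

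Between 18368994 and 23877131 reads per mouse were assigned to genes, of which the 44 genes took 0.568% to 0.712%. Some libraries stood apart. Within the control group, mice 3 and 4 had nearly the same profile (18.1% of genes passed the 95% point of a chi-square test between them), as had mice 1 and 2 (24.9%), while the next closest pair of mice within any group reached 43.6%. Both pairs differed by more than sampling noise and each library was counted, but libraries from the same animal or tumor would do so too, and every p against control assumes 4 separate control mice. The control pairs also differed by transcript length, with a median log2 difference of mice 1 and 2 over mice 3 and 4 of -0.34 for 604 genes under 1 kb and 0.36 for 913 genes of 8 kb or more. Marker genes of several cell types moved with treatment, and which cells their transcripts came from was not tested. The summed level of 14 matched hepatocyte markers was 13100 to 14280 CPM (counts scaled to a common library size with TMM factors) in control, 267 to 1569 CPM with SB525334, 8313 to 16650 CPM with KN046 and 12.2 to 18.8 CPM with the combination. For 9 matched T cell markers the sums were 41.4 to 50.1, 22.8 to 40.2, 9.11 to 23.8 and 35.8 to 76.6 CPM in the same order. The 8 epithelial markers, which include Epcam and keratins, summed to 152 to 250 CPM in control, 37.9 to 51.3 with SB525334, 125 to 204 with KN046 and 6.93 to 16.7 with the combination. The 9 fibroblast markers summed to between 6362 and 11730 CPM in every mouse. At an adjusted p under 0.05, Lum and Col1a2 were lower in the combination than in control, and Thy1 lower with KN046. Against KN046, the combination had Thy1, Col3a1 and Pdgfrb higher and Lum lower. The 8 macrophage markers summed to 1693 to 1820, 1565 to 2476, 814.5 to 1722 and 1669 to 2414 CPM (control, SB525334, KN046, combination). Sums of 6 B cell markers were 4.92 to 9.56, 1.76 to 5.65, 4.47 to 16.6 and 3.92 to 63.5 CPM in that order. Endothelial markers, 7 in all, summed to 92.5 to 210.1 CPM in control, 40.6 to 91.7 with SB525334, 146 to 208 with KN046 and 86.8 to 103 with the combination. Neutrophil markers summed to 97.8 to 115, 7.37 to 17.5, 15.4 to 23.7 and 4.58 to 145 CPM in that order, and erythroid precursor markers to 82.0 to 156, 5.13 to 49.1, 60.9 to 320.2 and 9.28 to 256 CPM. The part of these shifts in the levels of the cell cycle genes was not tested. For 11 of the 44 genes (Ccna2, Ccne1, Ccne2, Cdk1, Aurka, Cdc20, Kif20a, Mcm7, Cdc45, Tk1 and Foxm1) the annotation overlaps another counted gene, and without a stated strand setting their reads may be split with it.

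As a group, the 44 genes moved little. With KN046, 3 of the 44 genes rose against control at an adjusted p under 0.05 (Ndc80, Foxm1 and Tk1, beside 1.6% of all genes tested) and none fell (2.4%). With the combination, 3 genes fell (Mki67, Cenpf and Cenpe, beside 9.74%) and none rose (1.37%). With SB525334 alone, the main edgeR fit with TMM scaling called none in either direction (0.394% of all genes rose and 9.22% fell). At an unadjusted p under 0.05 there were 2 higher (Mcm6 and Mcm7, 4.07%) and 3 lower (Mki67, Cenpe and Cenpf, 14.9%). Mcm7 was called higher there by DESeq2 and by edgeR under other settings, such as RLE, upper-quartile or total count scaling. Over the 44 genes, the median log2 difference from control came to 0.10 for SB525334, 0.10 for KN046 and 0.06 for the combination, beside 0.00, -0.03 and 0.01 over all genes. These 3 comparisons share the same 4 control mice, so their values are given side by side only.

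**Figure D1:**
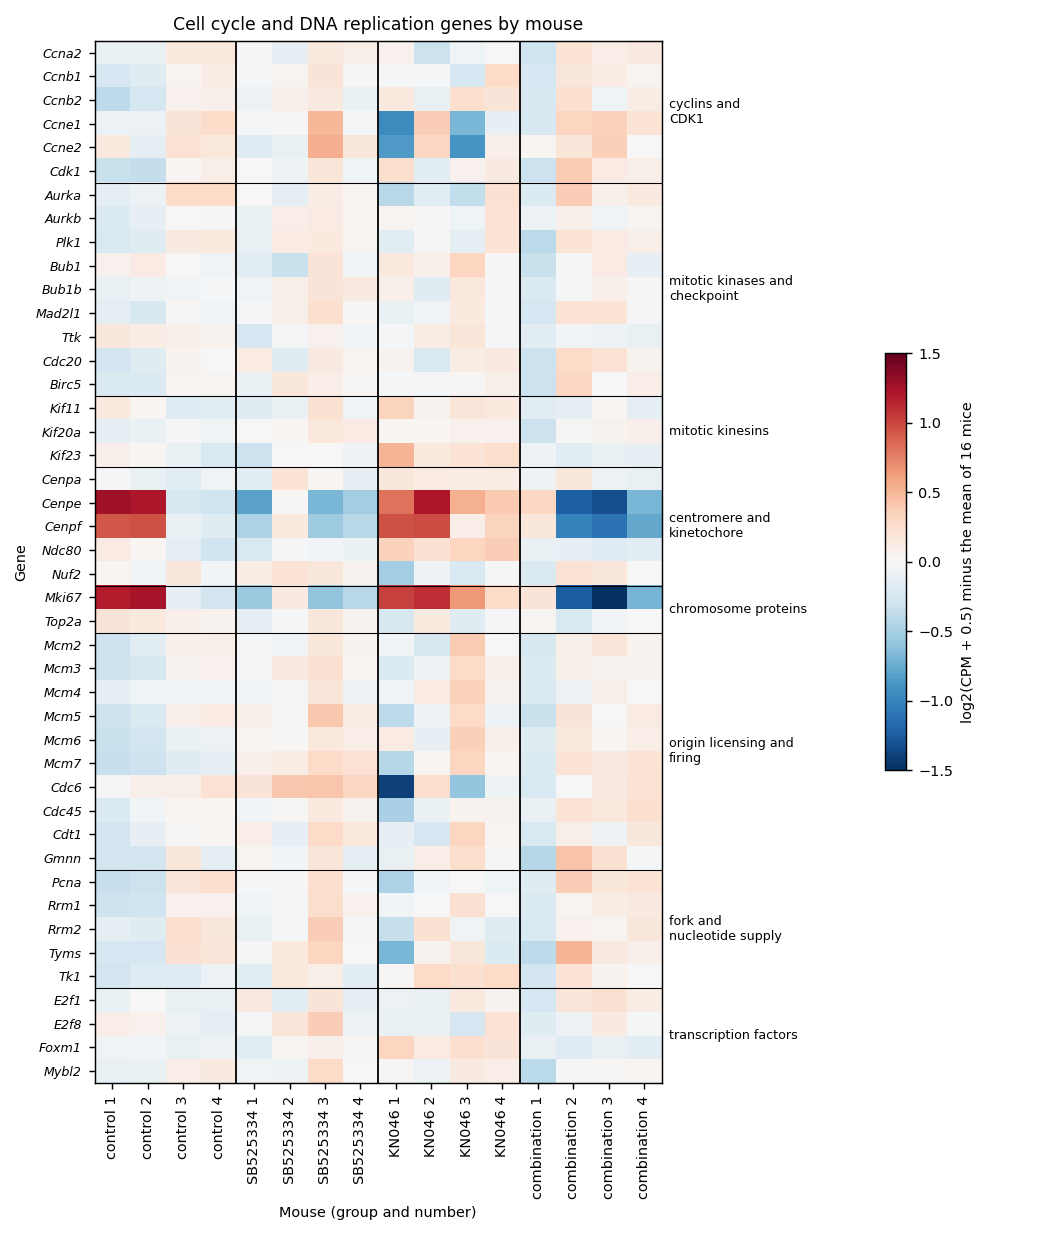
Levels of the 44 genes (rows, ordered by role) in the 16 mice (columns, 4 per group), as log2(CPM + 0.5) minus the gene's mean over the 16 mice. Mki67, Cenpe and Cenpf are high in control mice 1 and 2 and in KN046 mice 1 and 2 and low in combination mice 2 to 4, while most other genes stay close to their mean in all groups.

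Promoter sequences are shown for the genes on which these results turn and for Ccnb1 as a mitotic gene that was called in no comparison. RefSeq windows of 300 bases, 250 before the annotated start and 50 from it, were at hand for 37 of the 44 genes (38 windows, drawn on GRCm38.p6, each found at 1 place in GRCm39, to which the coordinates refer). Aurkb, Ccna2, Ccne2, Foxm1, Gmnn, Kif20a and Mcm4 had no entry. Capitals mark CHR elements (TTTGAA or TTCGAA) and CCAAT boxes (CCAAT), searched on both strands. Each sequence runs 5′ to 3′ on the strand of its gene.
Mki67, chr7:135318059-135318358, minus strand: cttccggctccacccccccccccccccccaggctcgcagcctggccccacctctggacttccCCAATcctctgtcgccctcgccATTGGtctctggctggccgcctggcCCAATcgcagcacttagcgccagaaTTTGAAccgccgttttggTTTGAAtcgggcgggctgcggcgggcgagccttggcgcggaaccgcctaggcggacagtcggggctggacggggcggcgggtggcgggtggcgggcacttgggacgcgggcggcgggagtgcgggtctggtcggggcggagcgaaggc
Cenpf, chr1:189420234-189420533, minus strand: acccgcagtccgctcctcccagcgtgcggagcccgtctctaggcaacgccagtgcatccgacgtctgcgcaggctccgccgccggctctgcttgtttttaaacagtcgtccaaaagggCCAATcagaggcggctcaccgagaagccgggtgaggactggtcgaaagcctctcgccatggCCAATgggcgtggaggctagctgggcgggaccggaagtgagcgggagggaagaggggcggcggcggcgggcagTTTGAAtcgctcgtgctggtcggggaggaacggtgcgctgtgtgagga
Cenpe, chr3:134918074-134918373, plus strand: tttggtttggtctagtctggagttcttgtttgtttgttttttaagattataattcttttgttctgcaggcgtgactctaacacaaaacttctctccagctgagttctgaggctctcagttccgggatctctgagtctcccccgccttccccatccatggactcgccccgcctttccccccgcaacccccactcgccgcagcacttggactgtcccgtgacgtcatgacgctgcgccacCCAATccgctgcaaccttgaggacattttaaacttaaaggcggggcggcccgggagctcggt
Kif23, chr9:61854032-61854331, minus strand: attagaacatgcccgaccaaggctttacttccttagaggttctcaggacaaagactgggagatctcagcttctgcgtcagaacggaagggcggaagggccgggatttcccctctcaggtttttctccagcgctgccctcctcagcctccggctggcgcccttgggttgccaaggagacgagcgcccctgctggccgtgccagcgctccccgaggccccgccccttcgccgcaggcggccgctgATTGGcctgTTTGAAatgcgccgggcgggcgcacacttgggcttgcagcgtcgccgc
Ndc80, chr17:71833803-71834102, minus strand: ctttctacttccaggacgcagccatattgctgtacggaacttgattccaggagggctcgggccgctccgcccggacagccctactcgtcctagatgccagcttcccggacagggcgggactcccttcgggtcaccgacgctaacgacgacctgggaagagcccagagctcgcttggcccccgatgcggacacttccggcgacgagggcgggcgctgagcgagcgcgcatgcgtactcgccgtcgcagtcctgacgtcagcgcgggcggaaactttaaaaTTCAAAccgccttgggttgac
Tk1, chr11:117716791-117717090, minus strand: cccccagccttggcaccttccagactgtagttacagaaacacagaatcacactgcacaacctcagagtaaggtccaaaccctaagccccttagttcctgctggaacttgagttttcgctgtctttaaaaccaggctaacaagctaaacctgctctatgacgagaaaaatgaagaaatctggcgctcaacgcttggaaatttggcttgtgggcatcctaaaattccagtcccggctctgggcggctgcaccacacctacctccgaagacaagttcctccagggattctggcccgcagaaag
Ccnb1, chr13:100922945-100923244, minus strand: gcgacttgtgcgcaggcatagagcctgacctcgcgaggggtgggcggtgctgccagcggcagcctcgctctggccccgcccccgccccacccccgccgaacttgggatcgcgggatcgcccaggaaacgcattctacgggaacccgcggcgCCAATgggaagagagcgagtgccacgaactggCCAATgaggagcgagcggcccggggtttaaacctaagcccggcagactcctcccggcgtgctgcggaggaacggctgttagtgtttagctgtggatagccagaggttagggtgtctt

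In these windows, Mki67 held 2 CHR elements and 3 CCAAT boxes, Cenpf 1 and 2, and Kif23 1 of each. Ndc80 had 1 CHR element and no CCAAT box. Cenpe had 1 CCAAT box and Ccnb1 2 CCAAT boxes, with no CHR element of the forms searched in either. Other forms of the CHR element were not searched. Tk1 had neither motif. Of the 38 windows, 19 (50%, exact 95% interval 33.4 to 66.6) held a CHR element, beside 19.2% of 32851 RefSeq windows, and 27 (71.1%, 54.1 to 84.6) held a CCAAT box, beside 37.4%. E2F sites were searched as TTTCCCG and as TTTCGCG. The forms TTTGCCG and then TTTGGCG were counted with them. Such a site was in 8 windows (21.1%, 9.6 to 37.3), beside 6.7%. When the 250 bases before the start were taken alone, CHR elements were in 28.9% of the windows beside 17.1% of all. The intervals cover counting error only. Motifs were not compared between called and uncalled genes.

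The widest differences belonged to 3 genes that act on mitotic chromosomes. Mki67 (ENSMUSG00000031004, chromosome 7) encodes the Ki-67 antigen, which coats mitotic chromosomes and marks cycling cells in pathology. In mice 1 to 4 of each group, its level was 524, 547, 209.6 and 192 CPM in control, 157, 255, 154 and 174 under SB525334, 474, 499.7, 365 and 282 under KN046 and 265, 98.0, 62.2 and 143 in the combination group. Control mice 1 and 2 lay above every SB525334 and combination mouse, and control mice 3 and 4 lay within the range of both treated groups. Cenpf (ENSMUSG00000026605, chromosome 1), a large protein of the outer kinetochore and nuclear matrix, was at 112, 114, 54.3 and 51.4 CPM in control, 42.3, 64.7, 40.1 and 43.7 under SB525334, 114, 115, 62.7 and 73.7 under KN046 and 65.9, 28.6, 26.9 and 34.03 in the combination group. Cenpe (ENSMUSG00000045328, chromosome 3), a kinesin that carries chromosomes to the spindle equator, was at 113, 108.4, 39.5 and 37.7 CPM in control, 26.5, 47.2, 28.8 and 32.4 under SB525334, 82.5, 109, 67.8 and 61.2 under KN046 and 57.8, 19.7, 18.3 and 28.8 in the combination group. Both showed the same split of the control mice, and for Mki67 and Cenpe every combination mouse was below every KN046 mouse.

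Against control, the combination lowered all 3 genes, with log2 differences of -1.38 (SE 0.40, adjusted p = 0.0292) for Mki67, -1.09 (SE 0.32, adjusted p = 0.0301) for Cenpf and -1.26 (SE 0.39, adjusted p = 0.0433) for Cenpe, in edgeR's quasi-likelihood test. With SB525334 alone the differences were -0.99 (SE 0.39, adjusted p = 0.152) for Mki67, -0.80 (SE 0.31, adjusted p = 0.15) for Cenpf and -1.15 (SE 0.39, adjusted p = 0.0781) for Cenpe, and none passed. With KN046 alone they were 0.14, 0.14 and 0.10, with SEs of 0.31 to 0.39. Mki67, Cenpf and Cenpe fell in the combination against KN046 as well, with differences of -1.51 (SE 0.40, adjusted p = 0.0114), -1.23 (SE 0.32, adjusted p = 0.0101) and -1.36 (SE 0.39, adjusted p = 0.0182). Combination and SB525334 mice differed by -0.38 (SE 0.39, adjusted p = 0.942) for Mki67. All 3 calls against control were lost when the similar control mice were merged (adjusted p = 0.0749 to 0.0956) and without control mouse 1 or 2 or combination mouse 2, 3 or 4, taken one at a time. That of Cenpe was also lost with total count scaling. With control mice 3 and 4 as the only controls the differences were -0.51 for Mki67, -0.45 for Cenpf and -0.32 for Cenpe (adjusted p = 0.657 to 0.842), and with control mice 1 and 2 alone they were -1.91, -1.54 and -1.83.

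**Figure D2:**
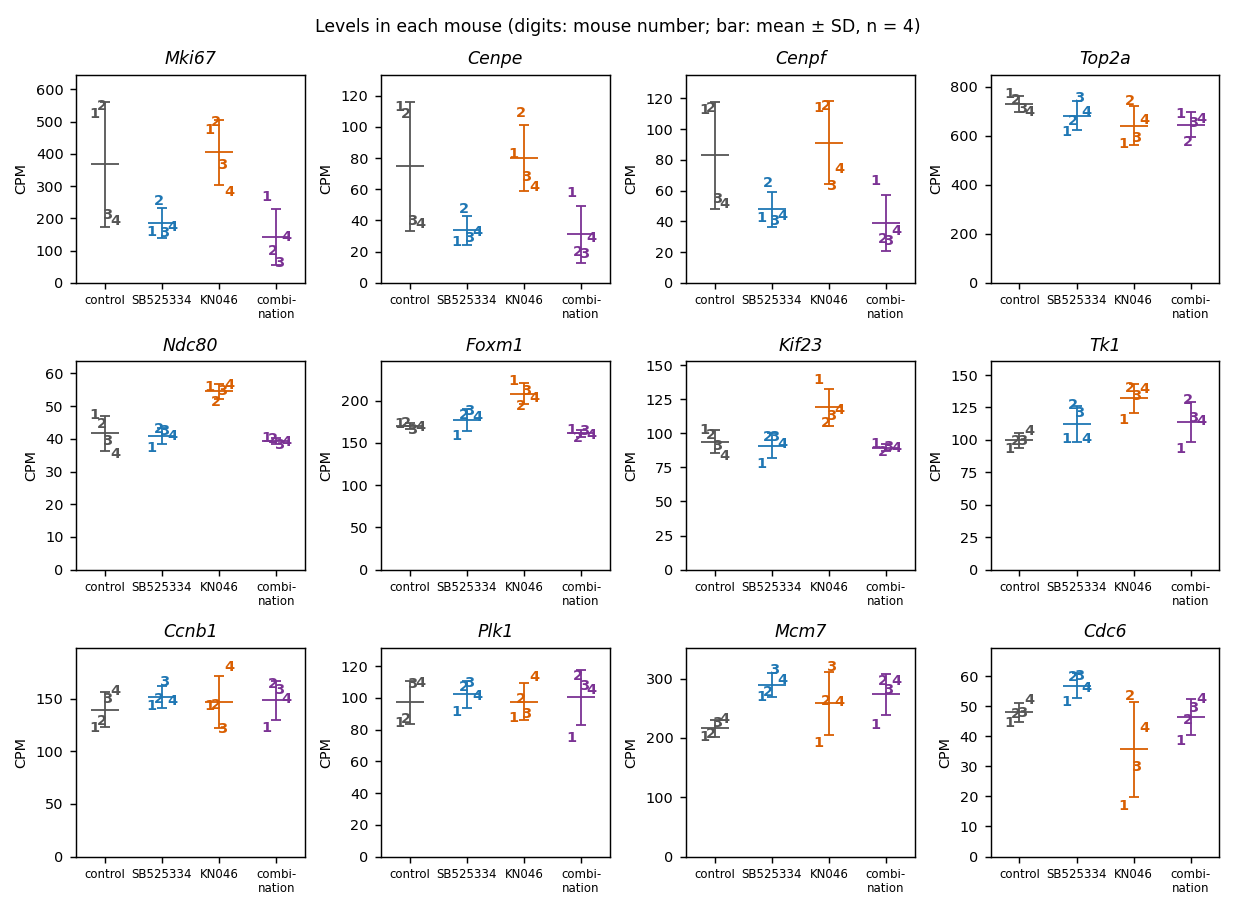
Levels in CPM of 12 genes in each mouse (digits give the mouse number within its group, bars the mean ± SD of 4 mice). Mki67, Cenpe and Cenpf show controls split into mice 1 and 2 against 3 and 4, while Foxm1, Ndc80 and Kif23 show all 4 KN046 mice above all 4 control and all 4 combination mice.

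Cenpf, Mki67 and Cenpe had the longest transcripts of the 44 genes, at 11210, 10270 and 7910 bases, followed by Mcm3 at 5432 bases. Control mice 1 and 2 exceeded mice 3 and 4 by a log2 difference of 1.51 for Cenpe, 1.41 for Mki67 and 1.09 for Cenpf, while the other 41 genes ran from -0.55 to 0.30, with a median of -0.18. Among 2276 tested genes of 6 kb or more, 24 had a difference between the control pairs at or above that of Mki67. For Cenpe the number was 18 and for Cenpf 79. The median of genes of 8 kb or more was 0.36. The split of these 3 genes was therefore wider than that of most transcripts of like length. After the trend with transcript length was removed from each library, an alternative chosen after seeing the data, the combination differed from control by -1.20 for Mki67, -0.91 for Cenpf and -1.15 for Cenpe (adjusted p = 0.0139 to 0.0321). Genes of 8 kb or more were themselves called lower in the combination more often than all genes against KN046, at 19.7% beside 14.5%, and about as often against control, at 9.53% beside 9.74%.

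**Figure D3:**
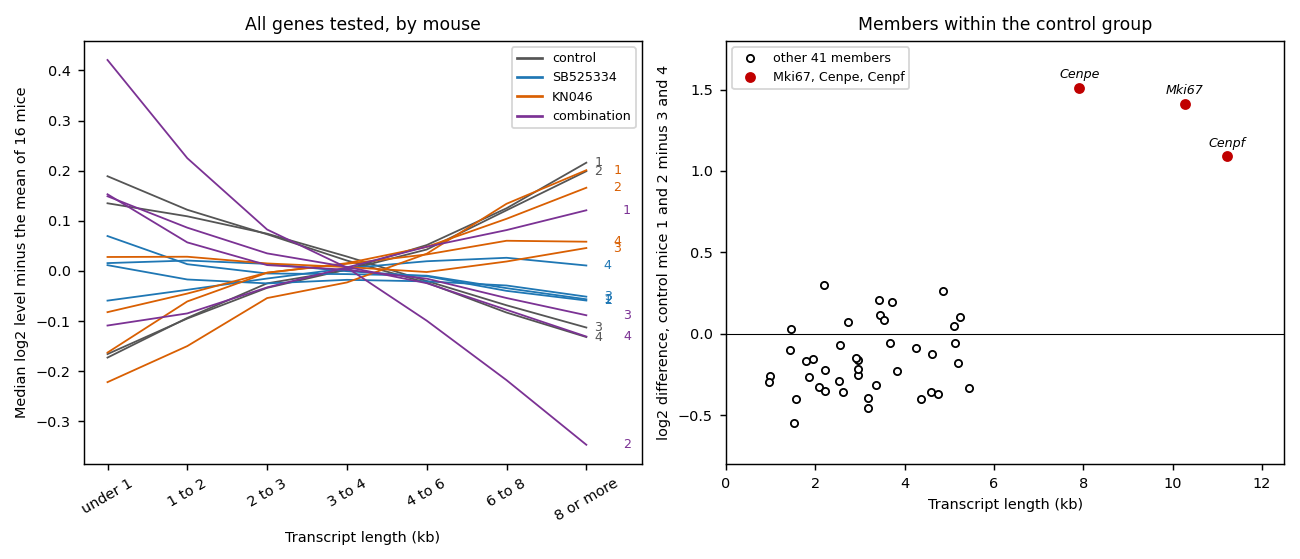
Left, median level of all tested genes by transcript length class in each mouse, as log2(CPM + 0.5) minus each gene's mean over 16 mice. Right, log2 difference of control mice 1 and 2 over control mice 3 and 4 against transcript length for the 44 genes, where Cenpf, Mki67 and Cenpe are longest and lie at 1.09 to 1.51.

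The remaining kinetochore genes included the clearest KN046 values. Ndc80 (ENSMUSG00000024056, chromosome 17) encodes a subunit of the complex that binds kinetochores to microtubules. Its level was 47.4, 44.6, 39.3 and 35.3 CPM in control, 37.3, 42.9, 42.5 and 40.8 under SB525334, 55.8, 51.4, 54.7 and 56.5 under KN046 and 40.4, 40.1, 38.2 and 39.1 in the combination group. All 4 KN046 mice were above all other 12 mice, and the combination mice lay within the range of control. With Kif20a, Kif23, Cenpa, Tk1 and Foxm1, it was among 6 of the 44 genes whose KN046 mice all exceeded the control mice, beside 4.94% of all genes. Ndc80 rose with KN046 by 0.39 (SE 0.10, adjusted p = 0.0364) and was lower in the combination than in KN046, at -0.47 (SE 0.10, adjusted p = 0.00181). The first call passed in 9 of 13 alternatives and in only 2 of 8 fits that each left out a mouse. It was lost, among others, when the similar control mice were merged (adjusted p = 0.222) and with total count scaling (adjusted p = 0.0927). The second passed in all 10 alternatives and in all 8 such fits. Nuf2, its partner in that complex, was called in no comparison, with differences from control of 0.10, -0.23 and 0.02 (SB525334, KN046, combination, in this order here and below). Cenpa, the histone H3 variant of centromeres, was at 101, 95.3, 92.7 and 99.9 CPM in control, 91.9, 119.5, 106 and 94.6 under SB525334, 116, 113, 112 and 112 under KN046 and 98.1, 116, 96.9 and 95.5 in the combination group. Its KN046 mice were all above the control mice, and the difference of 0.22 (SE 0.09, adjusted p = 0.17) did not pass.

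Of the mitotic kinesins, Kif23, which builds the central spindle for cytokinesis, was at 102, 99.0, 90.9 and 83.2 CPM in control, 77.6, 97.2, 97.0 and 92.1 under SB525334, 139, 107, 112 and 117 under KN046 and 92.1, 86.1, 89.8 and 89.5 in the combination group. The 4 KN046 mice were above all control and all combination mice. Kif23 fell in the combination against KN046, at -0.41 (SE 0.10, adjusted p = 0.00705), and its KN046 difference from control, 0.34 (SE 0.10, adjusted p = 0.0629), did not pass with edgeR and TMM scaling. DESeq2 called Kif23 and Mcm6 higher with KN046, and edgeR called Kif23 with the length trend removed. Kif11, the motor that separates spindle poles, was at 140.3, 129.5, 111 and 114 CPM in control, 112, 118, 149 and 122 under SB525334, 159.6, 132, 144 and 140.5 under KN046 and 113, 115, 129 and 116 in the combination group. Every combination mouse was below every KN046 mouse, with a difference of -0.28 (SE 0.11, adjusted p = 0.061). Kif20a, a partner of the chromosomal passenger complex, was higher in all SB525334 and all KN046 mice than in any control mouse, with differences of 0.15 and 0.12 (adjusted p = 0.389 and 0.429).

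Topoisomerase IIα, encoded by Top2a, untangles sister chromatids. Its transcript was at 769, 745, 711 and 698 CPM in control, 615, 662, 756 and 699 under SB525334, 568, 743, 591 and 666 under KN046 and 689, 574, 651 and 669.9 in the combination group. Every combination mouse lay below every control mouse, by a log2 difference of -0.18 (SE 0.11, adjusted p = 0.355), and the same held for Ttk, a spindle checkpoint kinase, at -0.20 (SE 0.10, adjusted p = 0.227). These were the only 2 of the 44 genes whose combination and control groups did not overlap in the lower direction, beside 12.1% of all genes.

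Cyclins and CDK1 were called in no comparison. Ccnb1, the mitotic cyclin, was at 122, 129, 149 and 157 CPM in control, 143, 149.8, 166 and 147 under SB525334, 143, 144, 121 and 179.9 under KN046 and 122, 164, 158 and 149.5 in the combination group. Its kinase partner Cdk1 was at 101, 99.9, 130.2 and 136 CPM in control, 127, 122, 145 and 123 under SB525334, 151, 114, 134 and 140.1 under KN046 and 102, 166, 139 and 136 in the combination group. For both, the groups overlapped, and differences from control were 0.12, 0.08 and 0.09 for Ccnb1 (SE 0.12) and 0.15, 0.21 and 0.22 for Cdk1 (SE 0.14). Ccne1, the G1/S cyclin, was at 13.2, 13.2, 16.2 and 17.2 CPM in control, 13.8, 14.2, 20.1 and 13.9 under SB525334, 7.04, 18.4, 8.61 and 12.9 under KN046 and 11.9, 17.8, 18.1 and 16.3 in the combination group. KN046 mice 1 and 3 were the lowest of the 16 for Ccne1, and the group difference of -0.35 (SE 0.24, adjusted p = 0.402) did not pass. Ccne2 showed the same 2 mice low, at 6.29 and 6.09 CPM beside 10.1 to 17.3 CPM in the other 14 mice. Ccna2 and Ccnb2 differed from control by 0.00, -0.10 and 0.02 and by 0.13, 0.24 and 0.14.

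None of the 9 mitotic kinases and checkpoint genes was called. Aurka, the spindle pole kinase, was at 102, 106, 136 and 138 CPM in control, 111, 102, 121 and 115 under SB525334, 84.0, 101, 86.8 and 131 under KN046 and 96.8, 145, 118 and 123 in the combination group. Plk1, the Polo-like kinase of mitotic entry, was at 83.9, 86.8, 109 and 109 CPM in control, 91.0, 107, 109.5 and 101 under SB525334, 87.5, 99.6, 89.9 and 113 under KN046 and 75.0, 114, 107.6 and 105 in the combination group. Neither was called, with differences from control of -0.10, -0.26 and 0.01 for Aurka (SE 0.15) and 0.07, 0.01 and 0.05 for Plk1 (SE 0.13). Bub1b, the checkpoint protein BubR1, was at 128, 132, 136 and 136 CPM in control, 135, 148, 159 and 152 under SB525334, 147, 122, 156 and 137 under KN046 and 119.5, 137, 147 and 140.5 in the combination group. Cdc20, the activator of the anaphase-promoting complex, was at 179, 192, 227 and 219.5 CPM in control, 237, 193, 240.2 and 225 under SB525334, 227, 187, 236 and 241 under KN046 and 175, 267, 254 and 226 in the combination group. Both had overlapping groups, with differences of 0.16, 0.08 and 0.03 and 0.13, 0.12 and 0.17. Birc5, or survivin, was at 82.9, 83.8, 99.9 and 99.5 CPM in control, 90.3, 109, 103 and 97.9 under SB525334, 94.9, 95.7, 98.0 and 103 under KN046 and 77.1, 119.9, 97.0 and 104 in the combination group, with differences of 0.13, 0.10 and 0.12. Aurkb, Bub1, Mad2l1 and Ttk made up the rest of the group, and over all 9 genes the median differences were 0.13, 0.10 and 0.05.

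Origin licensing and firing genes were on the higher side with SB525334, where 10 of 10 were above 0. So were 34 of all 44 genes and 6998 of 13968 genes tested. The 10 genes had a median of 0.20, and none was called in the main edgeR fit with TMM scaling. All 10 were lower in control mice 1 and 2 than in mice 3 and 4, by log2 differences of -0.06 to -0.36. Mcm2 lay at -0.03 with SB525334 when control mice 3 and 4 were the only controls. Mcm7, a subunit of the replicative helicase, was at 202 to 232 CPM over the control mice and 270 to 314 CPM with SB525334, without overlap, yet the difference of 0.42 (SE 0.13, adjusted p = 0.055) did not pass. DESeq2 and edgeR with RLE, upper-quartile or total count scaling called Mcm7 higher, and total count scaling called Mcm6 as well. Mcm6 likewise did not overlap, at 0.28 (SE 0.11, adjusted p = 0.165). Mcm6, Mcm7 and Kif20a were the 3 of the 44 genes above control without overlap there, beside 5.0% of all genes. Mcm2 was at 192, 212, 251 and 253 CPM in control, 236, 231, 268 and 248 under SB525334, 232, 202, 310.1 and 237 under KN046 and 202, 253, 272 and 248 in the combination group. Mcm5 was at 279.5, 297, 364 and 376 CPM in control, 364, 349, 457 and 374 under SB525334, 263, 329, 424 and 324 under KN046 and 275, 395, 348 and 376 in the combination group. For both, control mice 1 and 2 were below mice 3 and 4, and the differences of 0.11, 0.11 and 0.10 and 0.23, 0.03 and 0.08 had SEs of 0.13 and 0.15. Cdc6, which loads the helicase onto origins, was at 44.4, 47.4, 47.9 and 52.2 CPM in control, 51.4, 59.8, 60.1 and 56.0 under SB525334, 16.8, 53.3, 29.9 and 42.6 under KN046 and 38.4, 45.3, 49.3 and 52.4 in the combination group. KN046 mice 1 and 3, low for Ccne1 and Ccne2, were the lowest of the 16 for Cdc6 too, and the KN046 difference of -0.43 (SE 0.23, adjusted p = 0.267) passed only when KN046 mouse 2 was left out. Mcm3, Mcm4, Cdc45, Cdt1 and Gmnn had differences from control between -0.06 and 0.21.

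Of the genes of the fork and of nucleotide supply, Tk1, the thymidine salvage kinase, was at 93.3, 99.2, 99.4 and 107 CPM in control, 101, 127, 121 and 100.5 under SB525334, 115, 139.7, 134 and 139 under KN046 and 92.9, 131, 117 and 114 in the combination group. All KN046 mice were above all control mice, and Tk1 rose by 0.41 (SE 0.11, adjusted p = 0.0499), a call that was lost without any 1 of 7 of the 8 mice and in 7 of 13 alternatives. The other 4 genes of this role were called in no comparison. Pcna, the sliding clamp, was at 79.8, 81.5, 116 and 121 CPM in control, 100.4, 103, 121 and 101 under SB525334, 73.8, 98.6, 102 and 97.4 under KN046 and 89.9, 132, 114 and 118 in the combination group. Rrm2, the regulated subunit of ribonucleotide reductase, was at 115, 112, 149.9 and 142 CPM in control, 118, 124, 164 and 125 under SB525334, 99.5, 149, 123 and 112 under KN046 and 108.1, 133, 131 and 143 in the combination group. Groups overlapped for both, with differences of 0.10, -0.10 and 0.19 and 0.03, -0.10 and -0.01. Rrm1 and Tyms, the thymidylate synthase, differed by 0.17, 0.16 and 0.13 and by 0.13, -0.13 and 0.13.

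Foxm1, the forkhead factor of the mitotic wave, was the transcription factor with calls. Its level was 172, 173, 165 and 169 CPM in control, 159, 183, 188 and 181 under SB525334, 224, 194, 212 and 203 under KN046 and 165, 156, 164 and 159 in the combination group. The KN046 mice were above all other 12 mice, and the spread within the groups was small. Foxm1 rose with KN046 by 0.29 (SE 0.08, adjusted p = 0.0471), fell in the combination against KN046, at -0.37 (SE 0.08, adjusted p = 0.00269), and was the only one of the 44 genes with a called interaction, -0.43 (SE 0.11, adjusted p = 0.0341), the difference between the effect of SB525334 with KN046 and its effect alone (beside 2.55% of all genes lower and 1.73% higher). The KN046 call passed in 5 of 13 alternatives. It was lost without any 1 of 7 of the 8 mice, with the similar control mice merged (adjusted p = 0.293), and with total count or upper-quartile scaling. The interaction passed in 6 of 12 alternatives and in 4 of 16 fits that each left out a mouse (adjusted p up to 0.0856). The fall against KN046 passed in all 10 alternatives and all 8 such fits. Mybl2, which encodes B-MYB, was at 85.3, 85.9, 98.9 and 102 CPM in control, 88.8, 87.8, 113 and 92.9 under SB525334, 93.3, 87.0, 101 and 99.2 under KN046 and 69.6, 91.4, 93.2 and 94.1 in the combination group. E2f1 was at 61.1, 65.8, 60.2 and 60.2 CPM in control, 71.5, 58.7, 75.0 and 59.8 under SB525334, 61.4, 60.6, 72.3 and 67.8 under KN046 and 54.7, 74.4, 76.4 and 70.7 in the combination group. E2f8, a repressor of the family, was at 69.5, 67.7, 60.8 and 58.9 CPM in control, 63.6, 73.5, 83.6 and 61.6 under SB525334, 60.5, 60.4, 54.2 and 75.1 under KN046 and 56.9, 60.7, 71.3 and 63.5 in the combination group. None of these 3 factors was called, and their differences from control ran from -0.09 to 0.16.

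The combination differed from KN046 in more of these genes than from control. Kif23, Cenpe, Cenpf, Ndc80, Mki67 and Foxm1, 6 of the 44 genes, were lower at an adjusted p under 0.05, which is close to the 14.5% of all genes called lower, and none was higher, beside 9.89%. After the trend with transcript length was removed, a fit chosen after seeing the data, 10 genes were lower, with Birc5, Ccnb2, Cenpa and Tk1 added. The 14.5% belongs to the main fit and cannot be set beside these 10, and the share of all genes in that other fit is not given here. Groups did not overlap for 7 genes (Ttk, Kif11, Kif23, Cenpe, Ndc80, Mki67 and Foxm1), beside 12.4% of all genes. The median over the 44 genes was 0.00, as over all genes. Of the 6 calls, only that of Cenpe was lost when a mouse was left out (combination mouse 2, 3 or 4, with adjusted p up to 0.064). Between the combination and SB525334, edgeR called none of the 44 genes (0.544% of all genes higher and 3.03% lower), nor did any reach an unadjusted p under 0.05 (3.49% and 5.69%), and the median was -0.04. For the interaction, 32 of the 44 genes were below 0, beside 6828 of 13968 genes tested, with a median of -0.14 beside 0.01 over all genes. Between mice of a group, the median level of the 44 genes had an SD of up to 0.152. The interaction also includes the control mice, of which mice 1 and 2 were below mice 3 and 4 for 31 of the 44 genes. Whether the 44 genes shared an interaction was not tested. The hepatocyte sums given above were low in the combination and high in KN046 mice, and their part in these 6 calls was not tested.

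**Figure D4:**
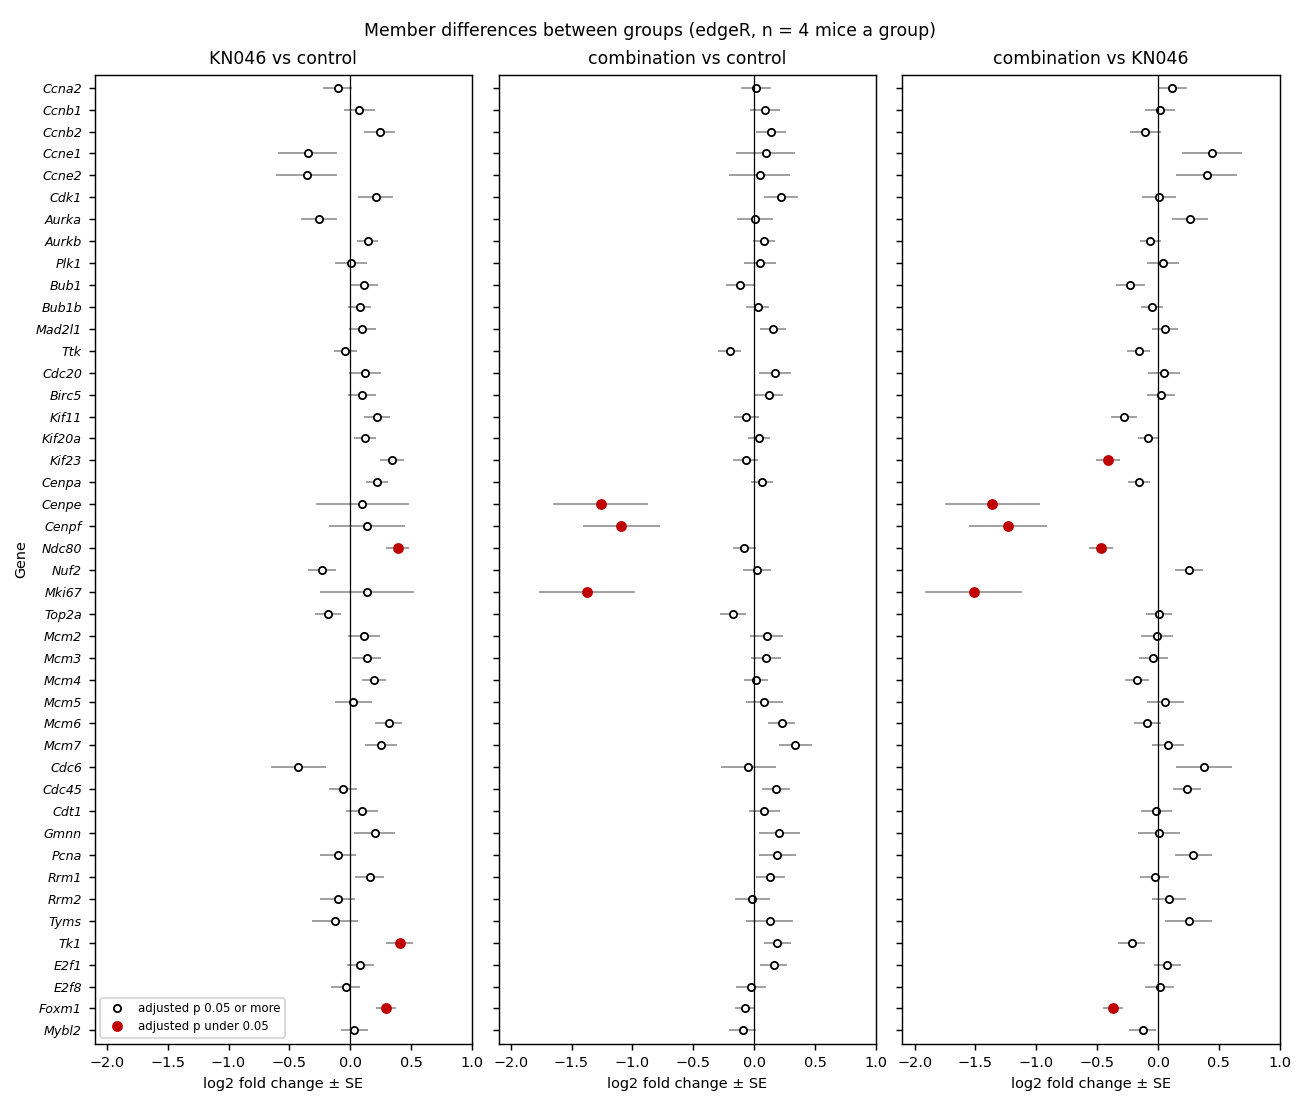
Log2 difference ± SE of the 44 genes for KN046 against control, the combination against control and the combination against KN046 (4 mice per group). Mki67, Cenpf and Cenpe lie at -1.09 to -1.51 in both combination comparisons, and Ndc80, Foxm1 and Tk1 lie at 0.29 to 0.41 for KN046.

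Genes of the same pathways outside the 44 were also counted. Against control, 1 of 42 further replication genes rose with KN046 (beside 1.6% of all genes) and none fell (2.4%). None was called with SB525334 (0.394% of all genes higher and 9.22% lower) or the combination (1.37% and 9.74%). The gene that rose was Clspn, the checkpoint mediator claspin, at 0.49 (SE 0.12, adjusted p = 0.0404). Its call passed in 2 of 8 fits that each left out a mouse. Of 47 further mitosis genes, Cenph rose with KN046, by 0.48 (SE 0.13, adjusted p = 0.046), and none fell. The call of Cenph passed in 1 of 8 such fits. At an unadjusted p under 0.05 there were 14 higher, beside 10.6% of all genes, and none lower, beside 1750 of 13968 genes tested. Smc4, a condensin subunit, fell with SB525334, at -0.95 (SE 0.25, adjusted p = 0.0176), beside 9.22% of all genes lower. With the combination, Smc4 fell at -0.94 (SE 0.25, adjusted p = 0.0172) and Knl1, the kinetochore scaffold, at -0.70 (SE 0.20, adjusted p = 0.0305), beside 9.74%. None of the 47 rose in either comparison. Smc4 was at 282, 267, 156 and 141 CPM in control mice 1 to 4, split as Mki67 was. With control mice 3 and 4 as the only controls, none of these falls was called. In fits that each left out a mouse, the falls of Smc4 passed in 4 of 8 each and that of Knl1 in 3 of 8. Against KN046, the combination lowered 11 of the 47 mitosis genes and raised none, beside 14.5% of all genes lower and 9.89% higher. Smc4, Kif15 and Cenph had the lowest adjusted p of these, at -1.17, -0.56 and -0.52. Of the 42 replication genes, 4 fell (Clspn, Rfc1, Timeless and Pola1) and 2 rose (Gins3 and Rpa2), a share below that of all genes in each direction.

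The lists below are short, and their calls are given gene by gene, not as a result about a list. Of all genes, 1.6% were called higher and 2.4% lower with KN046, and 0.394% and 9.22% with SB525334. For the combination against KN046 the shares were 9.89% and 14.5%, and for the interaction 1.73% and 2.55%. Among 6 G1 cyclins and kinases, the D-type cyclins Ccnd3 and Ccnd2 fell with KN046, at -0.74 (SE 0.16, adjusted p = 0.0239) and -0.71 (SE 0.18, adjusted p = 0.0401). Both were higher in the combination than in KN046, by 0.71 (SE 0.16, adjusted p = 0.00336) and 0.52 (SE 0.18, adjusted p = 0.0443). Their falls with KN046 passed in 4 (Ccnd3) and 1 (Ccnd2) of 8 fits that left out a mouse. The rise of Ccnd3 passed in all 8 such fits, and that of Ccnd2 in 2 of 8 and in 7 of 10 alternatives. They moved opposite to Ndc80, Foxm1 and Tk1, and the T cell marker sums given above were lowest in the KN046 mice, a shift whose part was not tested. Ccnd3 also had a called interaction, 0.80 (SE 0.22, adjusted p = 0.049). That call passed in 5 of 16 fits that left out a mouse and in 5 of 12 alternatives. Ccnd1 differed from control by 0.05, -0.37 and 0.01 and Cdk4 by 0.29, 0.02 and 0.36, none of which passed. Of 7 CDK inhibitors 5 were tested. Cdkn1a, the p21 inhibitor and a p53 target, differed from control by -0.43, 0.36 and -0.23, without a call, and was lower in the combination than in KN046, at -0.58 (SE 0.18, adjusted p = 0.0244). In the list of 16 pocket proteins and DREAM subunits, the E2F partner Tfdp2 rose with KN046 by 0.44 (SE 0.10, adjusted p = 0.0303), had an interaction of -0.56 (SE 0.14, adjusted p = 0.0322), and fell with E2f7 and Lin54 in the combination against KN046, at -0.41, -0.48 and -0.33. The call of Lin54 (adjusted p = 0.0474) passed in 4 of 10 alternatives and 2 of 8 fits that left out a mouse, and those of Tfdp2 and E2f7 against KN046 in all. With a mouse left out, the rise of Tfdp2 with KN046 passed in 3 of 8 fits and its interaction in 6 of 16. Of 14 checkpoint and CDC25 genes, Pkmyt1, an inhibitory kinase of CDK1, and Cdc25c, its opposing phosphatase, both rose with KN046, by 0.55 (SE 0.13, adjusted p = 0.0318) and 0.57 (SE 0.15, adjusted p = 0.0471). Btg2, an antiproliferative gene, fell with SB525334, at -1.08 (SE 0.28, adjusted p = 0.0162). Against KN046, the combination lowered Pkmyt1, at -0.54 (SE 0.13, adjusted p = 0.00694), and raised Ccng1, a p53 target, by 0.29 (SE 0.10, adjusted p = 0.0488). With a mouse left out, the call of Ccng1 passed in 2 of 8 fits and that of Cdkn1a against KN046 in 3 of 8, and Ccng1 passed in 5 of 10 alternatives. The rises of Pkmyt1 and Cdc25c with KN046 passed in 2 of 8 such fits each, and the fall of Btg2 in 6 of 8. Every call against control and every called interaction given above, inside and outside the 44 genes, was lost when the similar control mice were merged, which leaves 2 control values. The combination and KN046 are compared without control mice, which enter there only through the shared estimate of the spread.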

How the data were processed

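Total RNA from tumor tissue of 16 mice was sequenced as mRNA libraries on an Illumina HiSeq instrument. Per the labels, the authors processed reads with cutadapt 2.7, HISAT2 2.2.1 and HTSeq 2.0.4 on GRCm39. They deposited raw counts per gene and mouse, which were used here, and values normalized with DESeq2 1.38.3, which were not. Strand and multi-mapping settings are not given in the sources used here. Symbols, coordinates and transcript lengths came from the GENCODE M39 annotation, in which 21770 of 21959 genes were found.

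Counts were tested in R 4.3.3 with edgeR 4.0.16 (glmQLFit and glmQLFTest) after filterByExpr with a minimum count of 10, which kept 13968 genes, and TMM scaling. One model held the 4 groups and gave 5 differences between groups and the interaction, (combination - KN046) - (SB525334 - control). The biological coefficient of variation was 20.1%. P-values were adjusted by the Benjamini-Hochberg method over all genes tested, with a threshold of 0.05. Levels are TMM-scaled CPM. The labels number the mice and do not say more about their origin, so p-values measure the spread between these samples.

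Values by mouse are given for a list of 22 genes and for every gene of the 44 called in any comparison. Of the other lists, called genes are named, with the 3 of lowest adjusted p for the further replication and mitosis lists where more were called, and Cdkn1a, Ccnd1 and Cdk4 in any case. The genes and lists were chosen with earlier results of these data known. Overlap of groups was judged on the CPM of the 4 mice. The script was tested on simulated data. Alternatives were other scalings and filters, DESeq2 1.42.0, a fit of 8 mice alone, merged control mice, a replicate block, the study's thresholds (unadjusted p of 0.05 and fold change of 2), and each mouse left out.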

Additional observations from a re-analysis of the deposited data

Results flagged for a closer look

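For the 22 genes given by mouse and the others called, 104 groups of 4 mice were searched for a mouse whose gap to the nearest other mouse passed Dixon's 95% critical value as a share of the group's range. Chance flags about 1 in 20 groups, or 5.2 of 104, and 9 were found. Among SB525334 mice, mouse 3 was high for the G1/S cyclin Ccne1 (20.14 CPM, the other 3 mice 13.8 to 14.3), for the sliding clamp Pcna (121.2, others 100.4 to 103) and for the ribonucleotide reductase subunit Rrm2 (164.3, others 118 to 125), and mouse 2 was high for the kinetochore gene Cenpf (64.69, others 40.2 to 43.7). KN046 mouse 1 was low for Pcna (73.77, others 97.4 to 102) and high for the centromere histone Cenpa (116.0, others 112 to 113). In the combination, mouse 2 was high for Cenpa (115.9, others 95.5 to 98.1) and mouse 1 low for the B-MYB gene Mybl2 (69.58, others 91.4 to 94.1). Control mouse 2 was high for E2f1 (65.79, others 60.2 to 61.1). The number found was thus near that given by chance, although 3 of the 9 were in the same SB525334 mouse.

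For Foxm1, the response to SB525334 was compared between tumors with and without KN046. The tested interaction was -0.4338 on the log2 scale (adjusted p = 0.0341 by edgeR), from a difference of -0.37 in the presence of KN046 and 0.06 in its absence. The 4 combination mice were below the 4 KN046 mice, whereas SB525334 and control mice overlapped. The interaction passed in 4 of 16 fits that each left out a mouse and in 6 of 12 alternatives.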

How the results depend on the processing

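The fits with trends in transcript length or GC content removed and those with 1 control pair only were chosen after seeing the data. Shares of all genes called are given above for the main fit only, so the counts below stand without them. For SB525334 against control, 1 gene (Mcm7) was higher with RLE or upper-quartile scaling, the replicate block, 8 mice fitted alone, the length trend removed alone or with GC, and DESeq2, and 2 with total count scaling. There, 3 were lower with control mice 1 and 2 only and 1 under the study's thresholds. For KN046, 3 higher genes became 1 without a count filter, with upper-quartile scaling or with control mice 3 and 4 only, 0 with total count scaling, 8 mice alone, merged controls, control mice 1 and 2 only or the study's thresholds, 5 with DESeq2 and 6 with length and GC trends removed. For the combination against control, 3 lower genes became 0 with 8 mice alone, merged controls or control mice 3 and 4 only. With total count scaling 2 were left (Mki67 and Cenpf), and 1 gene (Pcna) was higher with control mice 1 and 2 only. Against KN046, 6 lower genes became 10 with the length trend removed, alone or with GC, and 3 under the study's thresholds. For the interaction, 1 gene became 0 without a count filter, with the replicate block, merged controls, control mice 1 and 2 only or the study's thresholds, and 2 with the length trend removed or DESeq2. With each mouse left out in turn, SB525334 had 0 to 1 lower, KN046 0 to 5 higher and 0 to 1 lower, the combination 0 to 3 lower and 0 to 1 higher against control and 0 to 2 higher against KN046, and the interaction 0 to 2 lower. The count of 5 came without KN046 mouse 2. The cause of these shifts was not tested. No scaling moved the median of all genes by over 0.1.

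Mouse numbers did not pair the mice. Same-number deviations correlated at -0.444 to 0.486, with 8 of 24 over 0.1, and in 9 of 24 comparisons of a mouse with another group the own number correlated best. With the replicate block, KN046 kept Ndc80 and Tk1, and the 3 and 6 lower genes of the combination against control and KN046 were all called.

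The genes that follow were called under no setting named with them, and their log2 difference from control changed sign. With control mice 1 and 2 only, the values were for SB525334 Aurka 0.114 and Kif11 -0.102, for KN046 Mki67 -0.401, Pcna 0.204 and Rrm2 0.0886, and for the combination Cdc6 0.0178, Mybl2 0.0285 and Rrm2 0.18. With control mice 3 and 4 only, they were for SB525334 Ccnb1 -0.0145, Ccnd1 -0.0864, Ccne1 -0.107, Cdk1 -0.0392, Mcm2 -0.0331, Mybl2 -0.0674, Pcna -0.151, Plk1 -0.09 and Rrm2 -0.136. For KN046 they were Birc5 -0.0262, Ccnb1 -0.0616, Cdc20 -0.00419, Cdk4 -0.219, E2f8 0.0645, Mcm2 -0.0368, Mcm5 -0.142, Mybl2 -0.0767 and Plk1 -0.158. For the combination they were Aurka -0.186, Birc5 -0.00804, Bub1b -0.00576, Ccnb1 -0.0536, Ccnd1 -0.143, Ccne1 -0.0703, E2f8 0.0716, Kif11 0.069, Mcm2 -0.0527, Mcm5 -0.0895, Pcna -0.0665 and Plk1 -0.123. With the length trend removed, the combination gave Aurka -0.00443, Birc5 -0.0491 and Cenpa -0.045, and with GC as well Aurka -0.0104, Birc5 -0.0547, Cenpa -0.0458 and Plk1 -0.00461. Plk1 with KN046 was -0.00891 by total count and -0.00655 by upper-quartile scaling. Leaving out each mouse gave, for SB525334, Ccne1 -0.0956 to 0.133, Kif11 -0.0715 to 0.0929, Mybl2 -0.043 to 0.0958 and Rrm2 -0.0812 to 0.115. For KN046 the ranges were Ccnb1 -0.0377 to 0.162, Cdk4 -0.0616 to 0.115, E2f8 -0.14 to 0.0266, Mcm2 -0.0179 to 0.203, Mcm5 -0.105 to 0.128, Mki67 -0.0792 to 0.399, Mybl2 -0.000298 to 0.0815, Pcna -0.187 to 0.00775 and Plk1 -0.0737 to 0.0684. For the combination they were Aurka -0.0829 to 0.126, Ccnd1 -0.0546 to 0.0752, Cdc6 -0.102 to 0.0579, E2f8 -0.0798 to 0.0468, Kif11 -0.104 to 0.00308, Mybl2 -0.133 to 0.0271, Plk1 -0.0173 to 0.192 and Rrm2 -0.0813 to 0.0877. The lowest count of any of the 44 genes in any mouse was 109, for Ccne2.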
